A study of Mus musculus with 3 samples.

Results

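The microRNA hairpins mir-193a, mir-193b, mir-365-1 and mir-365-2 form 2 paralogous clusters, and their products were followed here in primary cultures of mouse aortic smooth muscle cells (AoSMC). All miR and moR windows whose identifier carries the stem mmu-miR-193a, mmu-miR-193b or mmu-miR-365 were taken, at every locus. This gave 16 windows at 4 hairpins, of 2590 windows at 808 hairpins in the whole series. Of the 16 windows, 8 are for miRs, the mature microRNAs, and 8 for moRs, the microRNA-offset RNAs that lie directly outside a miR in the primary transcript. Windows were taken by this name rule, whatever their level. The study sequenced small RNA from 3 libraries of untreated C57BL/6 cells that were grown out of pieces of several mouse aortas without the adventitia, and harvested near confluence in medium with 10% serum. The paper describes growth in charcoal-treated serum before experiments, and does not say whether this held for the sequenced cells. These libraries form 1 group, with no second condition, so every comparison is between RNAs of the same library. Biological replicates are named in the labels, but separate cultures are not. The p-values thus rest only on the spread between these libraries, which may be technical. That spread is estimated with information shared over all pairs of a comparison.

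A primary microRNA transcript folds into hairpins that Drosha and Dicer cut into a short duplex, and 1 strand of the duplex, from the 5p or the 3p arm, is loaded into an Argonaute protein. Bases 2 to 8 of the loaded strand, the seed, pair with target mRNAs. The mir-193b and mir-365 cluster is known from brown fat, where it is enriched. In cancer cells miR-193a-3p and miR-193b-3p are known to restrain growth, and miR-365-3p is known to restrain the growth of vascular smooth muscle cells, with cyclin D1 mRNA among its targets.

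The sequences of the mature miRs show which arms of the paralogs share a seed. They are printed 5′ to 3′ from RefSeq, build GRCm38.p6, which is the mm10 build of the files, with the seed in capitals. All 8 miR windows had a RefSeq entry.
miR-193a-3p: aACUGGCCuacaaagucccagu
miR-193b-3p: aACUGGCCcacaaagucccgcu
miR-193a-5p: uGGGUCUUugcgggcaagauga
miR-193b-5p: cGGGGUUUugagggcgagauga
miR-365-3p: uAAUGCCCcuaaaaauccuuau
miR-365-1-5p: aGGGACUUuugggggcagaugug
miR-365-2-5p: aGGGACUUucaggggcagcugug
The 3p miRs of mir-193a and mir-193b carried the same seed, ACUGGCC, and no other mouse miR of the RefSeq table did. Counted from 1 at the 5′ end, from miR-193a-3p to miR-193b-3p the bases differed at U9C, A20G and G21C, all outside the seed. The 5p miRs differed at U1C, U5G, C6U, C11A and A16G, and U5G and C6U lie in the seed. Thus the mir-193 paralogs share a seed in the 3p miR and have different seeds in the 5p miR. The 5p miRs of both mir-365 copies carried the same seed, GGGACUU, and differed at U10C, G11A and A19C from miR-365-1-5p to miR-365-2-5p. The 3p miR of mir-365 is the same RNA at both loci.

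These differences decide which loci a read can be told apart at. The authors kept inserts longer than 13 bases that matched the genome without a mismatch. The longest run shared by the 28-base windows of miR-193a-3p and miR-193b-3p was 10 bases. It was 7 bases for the 5p windows of mir-193a and mir-193b, and 12 bases in the 29-base 5p windows of mir-365-1 and mir-365-2. No read inside these windows could therefore match both copies. The windows of miR-365-3p shared 27 of 28 bases, and its reads were divided evenly between the loci by the authors. The Mir365-2 window exceeded the Mir365-1 window by 2, 0 and 1 reads in replicates 1, 2 and 3. Hence miR-365-3p is given as the sum of both loci, and the mir-365 loci are compared by their 5p miRs only. These held 413 of the 6605 miR reads of mir-365, and need not follow the total of a locus.

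The first cluster lies on chromosome 11 of mm10, on the plus strand. Its hairpin Mir193a spans chr11:79711969-79712034, and Mir365-2 spans chr11:79726400-79726511, with 14365 bases between them. Neither overlaps another GENCODE M21 gene. The nearest coding genes are Rab11fip4, whose end is 13945 bases before Mir193a, and Utp6, 205809 bases after Mir365-2. The second cluster lies on the plus strand of chromosome 16. There Mir193b spans chr16:13449523-13449601 and Mir365-1 spans chr16:13453840-13453926, and 4238 bases lie between them. Both hairpins fall in an intron of Gm15738, an antisense gene on the minus strand. The nearest coding genes are Mrtfb, which codes for a coactivator of serum response factor, 31993 bases before Mir193b, and Parn, which codes for a poly(A) ribonuclease, 84033 bases after Mir365-1.

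The libraries held 18636286, 15123616 and 18520989 mapped reads in replicates 1, 2 and 3. Of these, 73.1%, 83.0% and 81.9% lay in miR or moR windows. All miRs of the 4 hairpins together had 3434, 2278 and 3100 reads, or 0.0252%, 0.0182% and 0.0204% of the window reads. The smooth muscle markers miR-143 and miR-145a summed to between 48742 and 59042 RPMR, the normalised level of the files in reads per 1000000 reads of all miR and moR windows. The endothelial marker miR-126a summed to between 125 and 158 RPMR, the 3 blood markers to between 0.513 and 0.923 RPMR, and the 5 epithelial markers to between 7.49 and 7.85 RPMR. Of the 4 striated muscle markers, miR-208a had no row, and miR-133a-3p was at 0 in replicates 2 and 3. The higher arm of miR-1a, miR-1a-2-5p, had 0.440, 0.956 and 0.527 RPMR, and miR-206-3p averaged 138 ± 19.2 RPMR (SD, n = 3). The neuronal markers miR-124 and miR-9 summed to between 13.9 and 14.4 RPMR, and the liver marker miR-122 to between 1.54 and 1.75 RPMR. Most of the neuronal sum was miR-9-5p, with a mean of 12.2 RPMR, and miR-124 was at 0 in replicate 3.

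miR-365-3p was the highest product of the clusters, with 2453, 1529 and 2210 reads in replicates 1, 2 and 3, or 180, 122 and 146 RPMR. It averaged 149 ± 29.2 RPMR (SD, n = 3) and ranked 126 of 1230 named miRs. The next was miR-193b-3p, at 42.9, 27.4 and 27.0 RPMR, a mean of 32.4 ± 9.06 RPMR and rank 202. Both were highest in replicate 1.

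miR-193a-5p, the 5p product of the other mir-193 hairpin, had 188, 210 and 242 reads, or 13.8, 16.7 and 15.9 RPMR, and ranked 254. The locus-specific miR-365-2-5p had 5.87, 5.26 and 6.98 RPMR, and miR-365-1-5p had 4.03, 3.75 and 3.89 RPMR. miR-193a-3p, which shares its seed with miR-193b-3p, had 60, 49 and 51 reads, or 4.40, 3.91 and 3.36 RPMR. The lowest miR was miR-193b-5p, with 13, 33 and 22 reads, or 0.954, 2.63 and 1.45 RPMR. Down this order the ranges of neighbours over the 3 libraries did not overlap, except between miR-365-1-5p and miR-193a-3p, which both averaged 3.89 RPMR. Over all 1230 named miRs the median of the means was 0.291 RPMR.

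**Figure D1:**
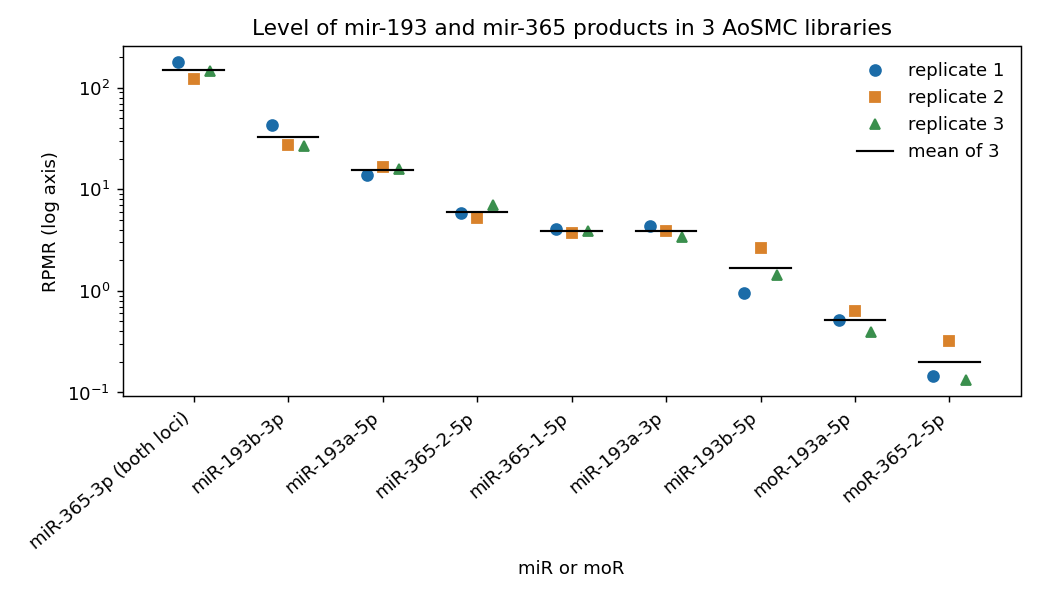
Level of the 7 miRs and of the 2 moRs with more than 1 read, in RPMR on a log axis, with a point for each library and a bar for the mean of 3. miR-365-3p lies highest, at 122 to 180 RPMR, and moR-365-2-5p lowest, at 0.132 to 0.319 RPMR.

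In mir-193a the 5p miR exceeded the 3p miR, whereas the 3p miR was the higher in the other 3 hairpins. The 3p miR of mir-193a took 24.2%, 18.9% and 17.4% of the hairpin's miR reads in replicates 1, 2 and 3. The exact 95% Clopper-Pearson interval was widest in replicate 1, with a lower limit of 19.0%, and those of replicates 2 and 3 lay between 13.2% and 24.2%. The mean was 20.2 ± 3.56% (SD, n = 3). These intervals cover counting error only, since PCR copies of a molecule were not marked. In mir-193b the 3p miR took 97.8%, 91.2% and 94.9%, with intervals between 87.9% and 98.8% and a mean of 94.7 ± 3.30%. In mir-365, with both loci summed, it took 94.8%, 93.1% and 93.1%, with intervals between 91.8% and 95.6% and a mean of 93.7 ± 0.981%. The shares of mir-193a did not overlap those of mir-193b or mir-365 in any library.

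The arms of 373 hairpins with at least 10 reads were compared within libraries, by the quasi-likelihood test of edgeR and with each library as a block. For mir-193a the log2 fold change of 3p over 5p was -1.99 ± 0.20 (SE), with adjusted p = 1.9e-07. A lower 3p miR was called for 1 of the 4 member hairpins, against 42.9% of all hairpins tested. A higher 3p miR was called for 3 of 4, against 43.4% of all. For mir-193b the log2 fold change was 4.27 ± 0.30 (edgeR adjusted p = 1.9e-09). With the evenly divided miR-365-3p reads it was 4.24 ± 0.19 for mir-365-1 and 3.61 ± 0.19 for mir-365-2, so these values assume equal amounts of miR-365-3p from both loci. With the copies summed it was 3.89 ± 0.18 (edgeR adjusted p = 5.8e-12). Differences of this size were common, since the median size over the 373 hairpins was 4.02 on the log2 scale. The size for mir-193a exceeded that of 25.5% of the hairpins and the size for mir-193b exceeded 53.1%.

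**Figure D2:**
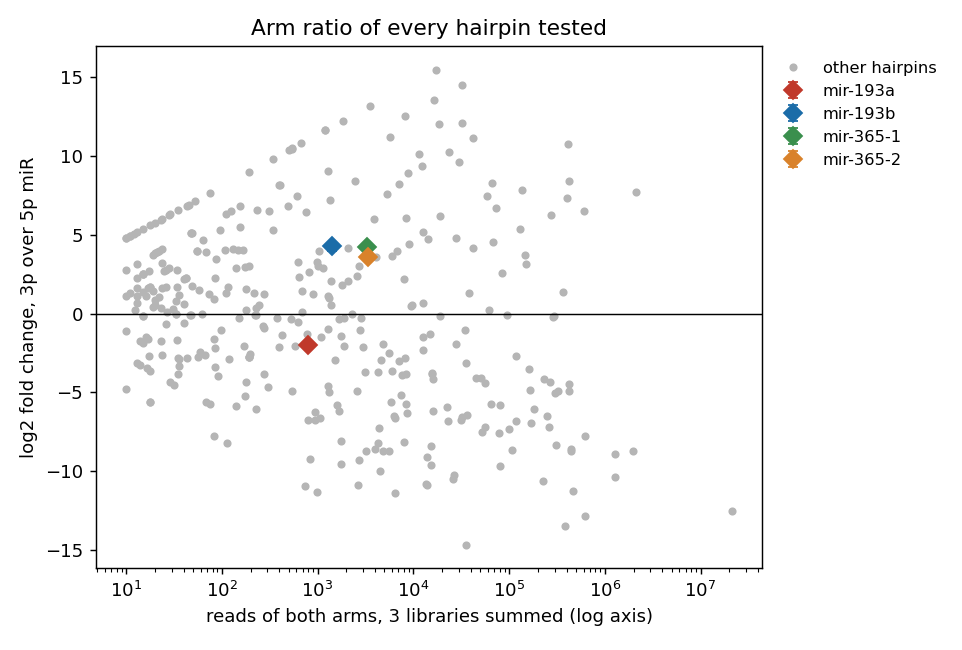
Fitted log2 fold change of the 3p over the 5p miR against the summed reads of both arms on a log axis, for the 373 hairpins tested, with the 4 member hairpins as diamonds with their SE. mir-193a lies below 0 at -1.99 and the other 3 lie between 3.61 and 4.27, and the values of hairpins with 0 reads on an arm depend on the prior count of the fit.

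The 2 mir-193 hairpins thus had opposite major arms. The difference between their 3p over 5p ratios was tested with a test chosen after the values were seen, as the interaction of locus and arm. The log2 ratio of mir-193a minus that of mir-193b was -6.28 ± 0.40 (edgeR adjusted p = 1.5e-07), and mir-193a had the lower ratio in 3 of 3 libraries. Over all 163 pairs of hairpins that share a microRNA number, 84.7% differed by this test, in either direction. Both hairpins had a called arm in 141 of these pairs, and in 22 of them, or 15.6%, the called arms were opposite. Large families give many pairs each, and by microRNA number 11 of 30 held a pair with opposite arms. Some pairs held much the same reads with the arms exchanged. For example, Mir126a and Mir126b had 6051 and 5995 reads and log2 fold changes of 3p over 5p of 3.66 and -3.63. Such pairs are opposite by construction, so these percentages are not rates of paralogs alone. The size for the mir-193 pair exceeded that of 82.2% of the 163 pairs.

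Between the paralogous copies, the 3p and 5p miRs of mir-193 differed in opposite directions. miR-193a-3p had 60, 49 and 51 reads, against 585, 344 and 410 reads of miR-193b-3p. Of the summed reads in the windows of both mir-193 3p miRs, miR-193a-3p gave 9.30%, 12.5% and 11.1%, a mean of 10.9 ± 1.59% (SD, n = 3). The log2 fold change of miR-193a-3p over miR-193b-3p was -3.04 ± 0.12 (edgeR adjusted p = 2.9e-05). The 5p miRs had 188, 210 and 242 reads for miR-193a-5p, against 13, 33 and 22 reads for miR-193b-5p. miR-193a-5p gave 93.5%, 86.4% and 91.7% of the summed reads of both mir-193 5p miRs. The log2 fold change of miR-193a-5p over miR-193b-5p was 3.24 ± 0.23 (edgeR adjusted p = 0.00021).

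The 5p miRs of the mir-365 copies differed less. miR-365-1-5p had 55, 47 and 59 reads, against 80, 66 and 106 reads of miR-365-2-5p. Its share of the reads of both mir-365 5p miRs was 40.7%, 41.6% and 35.8%, and in replicate 2 the interval of the share, 32.4% to 51.2%, included equal amounts. The log2 fold change of miR-365-1-5p over miR-365-2-5p was -0.64 ± 0.11 (edgeR adjusted p = 0.0055), with miR-365-1-5p lower in 3 of 3 libraries. The 591 pairs tested share microRNA number and arm, and pairs like Mir126a and Mir126b were among them. The first copy was called higher in 52.6%, and among the members in 1 of 3 pairs. It was called lower in 36.0%, and among the members in 2 of 3 pairs. The size for mir-365 exceeded that of 13.5% of the pairs, and the median size was 3.02 on the log2 scale. With both arms summed, mir-193a gave 29.3%, 40.7% and 40.4% of all mir-193 miR reads, so the chromosome 16 copy had more reads in every library. The copies differ in sequence, and the part of sequence preference in ligation in these read counts was not tested.

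**Figure D3:**
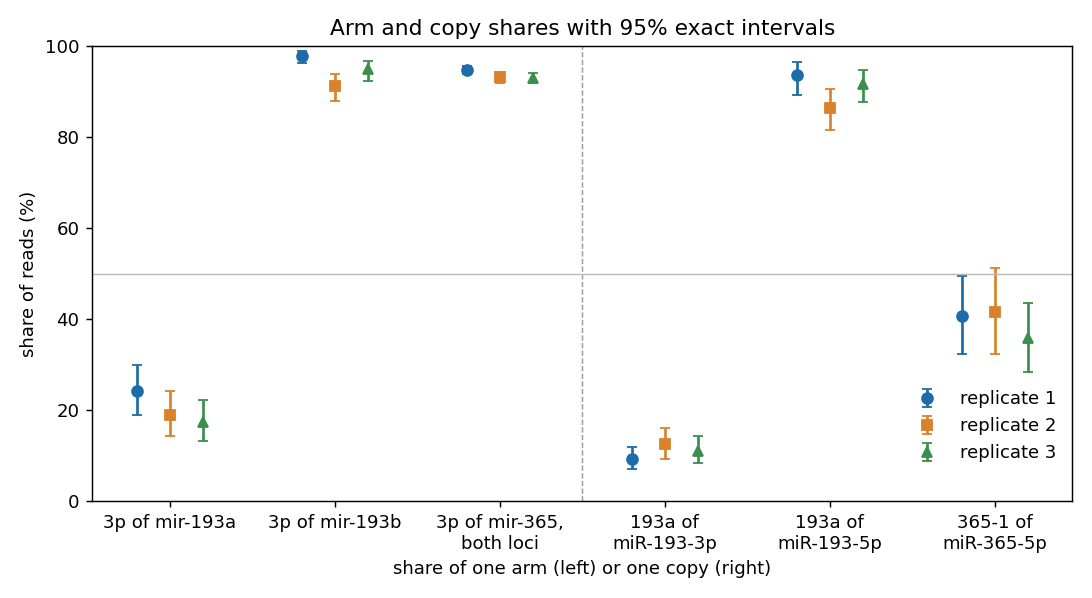
Share of reads in percent, by library, with exact 95% intervals, for the 3p arm of a hairpin on the left and for the first of 2 copies on the right. The 3p share averages 20.2% for mir-193a and is at least 91.2% in every library for mir-193b and mir-365, and miR-193a gives on average 10.9% of the miR-193-3p reads and 90.5% of the miR-193-5p reads.

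Within each cluster the 5p miRs, which are specific to their locus, were set against each other. On chromosome 11 the upstream miR-193a-5p had 2.35, 3.18 and 2.28 times the reads of the downstream miR-365-2-5p. Its log2 fold change was 1.35 ± 0.13 (edgeR adjusted p = 0.0011). On chromosome 16 the upstream miR-193b-5p had 0.236, 0.702 and 0.373 times the reads of the downstream miR-365-1-5p, a log2 fold change of -1.25 ± 0.33 (edgeR adjusted p = 0.025). Without replicate 3 the adjusted p was 0.093, at a log2 fold change of -1.17 ± 0.46. Among 117 adjacent hairpins within 20 kb, the upstream 5p miR was called higher in 47.9% and lower in 43.6%. The chromosome 11 result was for the 5p miRs only, since with the 3p miRs in their place the upstream miR-193a-3p was lower than the part of miR-365-3p assigned to Mir365-2, at a log2 fold change of -4.26. For chromosome 16 the same exchange gave -1.21. The 3p values rest on the even division of miR-365-3p.

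Few reads came from moRs. The 8 moR windows had 9, 13 and 8 reads, 30 in all, at 3 windows of the 5p side, and the other 5 windows, all 4 of the 3p side among them, were at 0. moR-193a-5p had 7, 8 and 6 reads, or 0.513, 0.638 and 0.395 RPMR, against 188, 210 and 242 reads of miR-193a-5p. It ranked 56 of 294 moRs with reads. Its mean of 0.52 RPMR lay below the level of 1 RPMR above which the paper counted moRs as expressed. moR-365-2-5p had 2, 4 and 2 reads, against 80, 66 and 106 reads of miR-365-2-5p. moR-193b-5p had 0, 1 and 0 reads.

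All 3 moRs with reads were lower than the miR of their arm. The log2 fold change of moR over miR was -4.90 ± 0.31 for the 5p arm of mir-193a, -4.90 ± 0.42 for that of mir-365-2 and -5.64 ± 0.84 for that of mir-193b (edgeR adjusted p = 1.8e-45, 1.5e-27 and 5.1e-11). Without replicate 2, which holds the only moR read of mir-193b, its fitted value was -7.14 ± 1.62 and, with 0 moR reads left, depends on the prior count. A lower moR was called in 91.8% of the 243 arms tested, which were limited to arms with at least 1 moR read. The median over them was -8.67 on the log2 scale. Each moR-193a-5p read was matched by 30.5 miR reads, with an exact interval of 19.8 to 49.6, and each moR-365-2-5p read by 31.5, with an interval of 15.7 to 73.8. For the 1 read of moR-193b-5p the ratio was 68.0, with an interval of 11.8 to 2725. Where no moR read was seen, a floor of 3 reads over the 3 libraries, or 0.0725 RPMR, was used. The moR was then at least 53.3-fold lower than miR-193a-3p, at least 446-fold lower than miR-193b-3p and at least 53.7-fold lower than miR-365-1-5p. With both loci summed, it was at least 2064-fold lower than miR-365-3p.

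Between the moRs of the arms, only the mir-193a hairpin reached 10 reads. It had 0 reads of the 3p moR, against 21 reads of the 5p moR, so the 3p moR was at least 7.00-fold lower (edgeR adjusted p = 0.00013). A lower 3p moR was called in 81.5% of the 81 hairpins tested. In mir-193a the 3p side thus had fewer reads than the 5p side for both the moR and the miR. In mir-365-2 the 3p side had 0 moR reads, against 8 on the 5p side, while the 3p miR was the higher miR.

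The RefSeq hairpins hold only part of these moR windows, since they begin 6 bases before miR-193a-5p and 28 bases before miR-365-2-5p. The stretch before miR-365-2-5p, at chr11:79726400-79726427 on the plus strand, is shown because moR-365-2-5p is the only moR of the clusters with reads whose adjoining bases are largely in the table.
Mir365-2 bases before miR-365-2-5p: agagugaucaaggacagcaagaaaaaug
The files give reads per window and not the ends of the reads, so which of these bases the 8 reads covered was not measured.

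**Figure D4:**
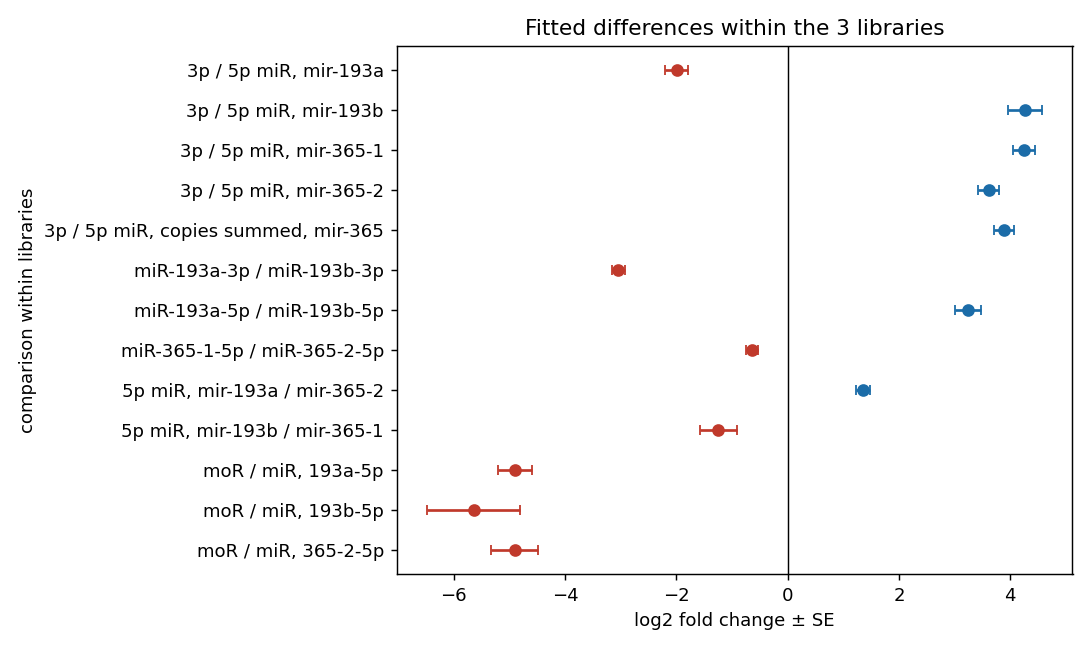
Fitted log2 fold change with its SE for the comparisons within the 3 libraries, first-named over second-named RNA. The comparison of the moRs of both arms and that of the arm ratios of mir-193a and mir-193b are not drawn. Values above 0 are for the 3p miR of mir-193b and mir-365, miR-193a-5p over miR-193b-5p and miR-193a-5p over miR-365-2-5p, and the values of moR over miR lie between -5.64 and -4.90.

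The members differed in how far they varied between libraries. The coefficient of variation was 27.9% for miR-193b-3p, against a median of 10.7% for the 86 other miRs whose mean level was within 2-fold. It was higher than that of 96.5% of them. For miR-193b-5p it was 51.3%, against a median of 19.4% for 109 such miRs, and miR-193b-5p had only 68 reads in all. For miR-365-3p it was 19.6%, against a median of 12.1% for 63 miRs. miR-365-1-5p varied by 3.71% and miR-193a-3p by 13.4%, against a median of 14.9% for the 109 miRs near each. These miRs had only 161 and 160 reads in all, so counting error limits both values. miR-193a-5p varied by 9.85%, against a median of 10.7% for 97 miRs, and miR-365-2-5p by 14.5%, more than 50.5% of 99 such miRs. Replicate 1 had the highest miR-193b-3p and the lowest miR-193b-5p.

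The 3p over 5p ratio was highest in replicate 1 for mir-193a, mir-193b and mir-365. For mir-193a it was 0.319, 0.233 and 0.211 in replicates 1, 2 and 3. For mir-193b it was 45.0, 10.4 and 18.6, and for mir-365 with both loci summed it was 18.2, 13.5 and 13.4. Among the 247 hairpins with at least 30 reads and reads of both arms in every library, the ratio was highest in replicate 1 in 44.5%, in replicate 2 in 28.7% and in replicate 3 in 26.7%. Replicate 1 also had the lowest share of reads in windows, and the part of this in the ratios was not tested.

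By the distance of log2(RPMR + 0.1) over the 3 libraries, the miRs most like miR-365-3p were miR-22-5p (0.25), miR-130a-3p (0.31) and miR-652-3p (0.38). Those most like miR-193b-3p were miR-31-3p (0.23), miR-455-5p (0.26) and miR-1981-5p (0.40). Those most like miR-193a-3p were miR-1247-5p (0.16), miR-376b-3p (0.23) and miR-877-3p (0.24). With 3 libraries this likeness is mainly of level.

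miR-365-3p was set beside other microRNAs known to act on smooth muscle growth, each by its higher arm. That arm was picked by level and need not be the arm known to act, and for miR-1a it was miR-1a-2-5p. Of 10 microRNAs that are known to restrain growth or keep the contractile state, 9 had reads, and miR-663 had no row. Their median level was 364 RPMR, and 5 of the 9 lay above the 149 RPMR of miR-365-3p, namely miR-143-3p, let-7d-5p, miR-145a-5p, miR-322-3p and miR-34a-5p. The other 4 were lower, from miR-195a-5p at 58.2 RPMR down to miR-133b-3p at 0.00815 RPMR. All 6 that are known to promote growth lay above miR-365-3p, from miR-222-3p at 333 RPMR to miR-21a-5p at 517698 RPMR. miR-193b-3p, at 32.4 RPMR, was below miR-195a-5p and above miR-1a, miR-133a and miR-133b.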

How the data were processed

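The authors sequenced TruSeq small RNA libraries as single reads of 75 bases and aligned them to mm10 with Bowtie, whose version is not given in the sources used here, without mismatches and at up to 5 loci. Reads near several precursors were split evenly between them. A miR window is the miRBase position widened by 3 bp, and a moR window runs from 3 bp inward to 35 bp outward. The raw reads per window that the authors deposited are estimated counts, since a split read adds a part of a read (96.1% of values were whole within 1e-9). The deposited RPMR is an RPM value, scaled by the authors to 1000000 reads over the miR and moR windows together, and values recomputed from the counts were within 7.3e-12 of it. The deposited window positions were read as 1-based, since 1670 of 1679 windows matched to RefSeq then equalled the mature miR widened by 3 bp. No correction for sequence preference in ligation is given in the sources used here. The comparisons of arms, copies and neighbours set RNAs of different sequence against each other. The part of this preference in them was not tested.

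The 3 libraries form 1 group, numbered as in their titles, and columns were matched by that number. The members, lists and tests were chosen with earlier results of these data known. Counts were rounded to whole numbers and tested with edgeR 4.0.16 (R 4.3.3), with the window total as library size and with each library as a block. Both values of a pair were measured in the same library, so the design gives the pairing. Pairs with at least 10 reads were tested, p-values were adjusted by Benjamini-Hochberg over the whole table, and adjusted p under 0.05 was called. DESeq2 1.42.0, TMM factors, minimums of 30 and 1 reads, no block, each replicate left out, summed copies, other distances (10 and 50 kb) and the 3p in place of the 5p miR were alternatives. The test of 2 arm ratios against each other was added after values were seen. The items named are every member window, the 3 nearest miRs of each 3p miR, and 2 lists of growth-related microRNAs. SciPy 1.17.1 and pandas 2.3.3 gave intervals and levels, and matplotlib 3.10.9 the figures. Genes are from GENCODE M21.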

Additional observations from a re-analysis of the deposited data

Results flagged for a closer look

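The 3p over 5p ratio differed between the mir-193 paralogs, by -6.28 on the log2 scale for mir-193a relative to mir-193b in the edgeR interaction test. It rests on the same reads as the comparisons of arms and of copies, and is not a separate result. Under the alternatives of this test, which were chosen after seeing the data, the value lay between -6.77 and -5.94.

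The 5p miR of the upstream hairpin was higher than that of the downstream hairpin in 3 of 3 libraries on chromosome 11, and lower in 3 of 3 libraries on chromosome 16. The log2 fold changes of the clusters, 1.35 and -1.25, differed by 2.60, and this difference was not tested. It follows from the 5p comparisons of copies, 3.24 for mir-193 and -0.64 for mir-365, and is not a separate result.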

How the results depend on the processing

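Of 120 member values under the alternatives, 118 kept their direction and their side of the threshold. This count is not a measure of robustness, since several alternatives could hardly move a member value. TMM factors scale both values of a pair alike, and the read minimums and distances leave the counts of a pair unchanged. The summed copies give the same value for mir-365-1 and mir-365-2. With the 3p in place of the 5p miR, the upstream over downstream value of the chromosome 11 cluster reversed to -4.26, since this alternative sets other RNAs, of which miR-365-3p is divided evenly, against each other. Leaving out a replicate gave between -1.70 and -0.94 for the chromosome 16 cluster, with edgeR adjusted p between 0.022 and 0.093, the highest without replicate 3. The number of hairpins with a higher 3p moR, 9, was 4 with DESeq2, 4 with at least 30 reads and between 3 and 5 with a replicate left out. The number with a lower 3p moR, 66, was 42 with at least 30 reads, which leaves fewer hairpins to test, and between 38 and 55 with a replicate left out, the lowest without replicate 3. Without the library as a replicate block, 166 hairpins had a higher and 163 a lower 3p miR, against 162 and 160 with it, and no call of a member changed. The counts of the mir-193b 5p arm, 68 miR reads and 1 moR read, limit its values. Its moR over miR value was between -7.14 and -5.22 with a replicate left out, the lowest without replicate 2. Reads of miR-365-3p cannot be assigned to a locus.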
